A study of Mus musculus with 6 samples.

Results

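Open chromatin was examined around the 7 mouse genes that encode the Fos and Jun subunits of the transcription factor AP-1: Fos, Fosb, Fosl1, Fosl2, Jun, Junb and Jund. Peaks were taken from all 6 ATAC-seq libraries when their summit lay within 50000 bases of a fixed position for each gene, which gave 1956 of 1455940 listed peaks. The positions, on GRCm39, were 85520664 on chromosome 12 for Fos, 19040000 on chromosome 7 for Fosb, 5497726 on chromosome 19 for Fosl1, 32293203 on chromosome 5 for Fosl2, 94940000 on chromosome 4 for Jun, and 85703000 and 71151000 on chromosome 8 for Junb and Jund. Those of Fosb, Jun, Junb and Jund are rounded, so distances there are approximate. Above and below a position mean a higher and a lower coordinate. At these loci, the peaks strong enough to be compared between libraries formed 119 windows, each reaching 250 bases to either side of a summit, out of 78665 genome-wide. The farthest window inside the distance and the nearest outside it lay closest together at Junb, at 49280 and 50452 bases, and Jun, at 46662 and 50138. The cells were ATDC5, a mouse line of chondrocyte precursors derived from a teratocarcinoma, labelled as control at Day0 and as differentiation at Day3 and Day10, with 2 libraries described as biological replicates per day. All groups were the same line, spotted as dense droplets in dishes, with differentiation in beta-glycerophosphate and ascorbate-2-phosphate. No gene was deleted or introduced according to the labels.

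AP-1 is a dimer. A Fos protein typically pairs with a Jun protein through a leucine zipper, while Jun proteins can also pair among themselves, and the dimer binds the TPA response element. Fos, Fosb, Jun and Junb are immediate early genes, whose transcription is switched on within minutes by growth factors and stress through serum response factor and cyclic AMP response element binding proteins. In cartilage, AP-1 is best known as an activator of the collagenase gene Mmp13, and mice lacking Fosl2 have a growth plate defect with fewer hypertrophic chondrocytes.

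Promoters of the genes with no other protein-coding gene listed within 50000 bases in the RefSeq table of GRCm38.p6, which are Fos, Fosl2 and Jun, are shown because a peak near their start has no other listed promoter beside it. Each runs 5′ to 3′ on the strand of the gene, from 250 bases before the RefSeq start to 50 after it. The Fos promoter is chr12:85473640-85473939 on the plus strand, that of Fosl2 is chr5:32136222-32136521 on the plus strand and that of Jun is chr4:95052173-95052472 on the minus strand, all on GRCm38.p6. These coordinates belong to another build than the peak positions and cannot be set beside them. Capitals mark matches to TGACG, the core of the cyclic AMP response element, or to TGANNTCA, which takes in that element and its variants.
Fos: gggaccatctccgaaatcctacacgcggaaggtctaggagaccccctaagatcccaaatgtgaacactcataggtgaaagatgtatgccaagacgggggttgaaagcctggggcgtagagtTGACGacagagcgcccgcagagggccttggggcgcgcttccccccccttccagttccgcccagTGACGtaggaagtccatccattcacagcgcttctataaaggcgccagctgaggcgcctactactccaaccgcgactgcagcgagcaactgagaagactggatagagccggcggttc
Fosl2: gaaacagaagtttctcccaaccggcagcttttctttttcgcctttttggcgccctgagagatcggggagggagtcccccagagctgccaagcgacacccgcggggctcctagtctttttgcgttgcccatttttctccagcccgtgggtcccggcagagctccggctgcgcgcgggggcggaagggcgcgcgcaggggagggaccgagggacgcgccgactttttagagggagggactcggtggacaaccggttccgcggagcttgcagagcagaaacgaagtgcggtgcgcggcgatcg
Jun: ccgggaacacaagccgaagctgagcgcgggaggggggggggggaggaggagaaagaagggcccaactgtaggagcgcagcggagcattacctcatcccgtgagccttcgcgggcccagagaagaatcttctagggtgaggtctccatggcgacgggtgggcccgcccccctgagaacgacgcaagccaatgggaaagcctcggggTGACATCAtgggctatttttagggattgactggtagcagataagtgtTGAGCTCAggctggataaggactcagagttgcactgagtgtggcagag
The Fos promoter held TGACG at bases 122 to 126 and 185 to 189 of the window, counted from 1 at its 5′ end. The Jun promoter held TGANNTCA at bases 206 to 213 and 253 to 260, and the Fosl2 promoter held neither. RefSeq promoters were matched for 6 of the 7 genes, all but Fosl1. TGACG, searched on both strands, was found in 3 of these 6 (Fos, Fosb and Junb) and in 20.8% of all 32851 promoters, and TGANNTCA in 2 of 6 (Jun and Jund) and in 14.1% of all. None of the 6 windows held TGACTCA or TGAGTCA, the AP-1 site (5.20% of all promoters), the full cyclic AMP response element (1.79%), the CArG box bound by serum response factor (1.63%) or the Ets core CCGGAA (14.9%). The cyclic AMP response element holds TGACG and is itself a form of TGANNTCA, so these motifs overlap. TGACG and TGANNTCA were added to the search after the other motifs had been counted. A match is only a match of letters in this window, and bases outside the window were not searched. GC content was 58.7% in the Fos window, 68.3% in Fosb, 64.7% in Fosl2, 60.0% in Jun, 65.3% in Junb and 46.7% in Jund, against a median of 52.7% over all promoters.

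Each library is 1 list of peaks with the authors' own fold over background. The lists held 164642 to 177751 peaks at Day0 and Day3 and 381376 and 390100 at Day10, so peaks were compared by rank within their library, where rank 1 is the strongest, and the 50000 strongest of each list were used. The Day10 lists reach down to narrower peaks and have a lower largest fold: their smallest width was 68 and 72 bases, against 87 to 90 in the other lists, and their largest fold 65.7 and 67.4, against 95.0 to 97.3. The steps between folds give a background of 0.72 and 0.73 (Day0), 0.80 in both libraries (Day3) and 1.08 and 1.15 (Day10). Over a higher background the same number of reads gives a lower fold, so a lower fold at Day10 need not mean fewer reads. A window was called gained when a summit in it ranked 50000 or better in each library of the later day and there was none, or one past rank 100000, in each library of the earlier day. A lost window is the reverse. Under the stricter form, used for the windows called gained or lost at single genes, the same had to hold for any peak overlapping the window. The stricter form was added after the data were seen. The word lysis stands in peak names of the Day3 lists and no others. Handling that differed by day and the day itself cannot be told apart. With 2 libraries against 2, no exact permutation test can give a two-sided p below 0.333, so no p is given, and both values of each day are printed. A weaker peak can mean fewer cells with the region open or less opening per cell, which cannot be told apart. No annotation of the peaks' build was used here, so exons and introns are not assigned, and the labelled cell type was not checked against its markers.

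All 7 genes had a strong peak near their position on every day. The strongest peak within 5000 bases ranked between 497 and 19305 in every library, well inside the 50000 strongest. At Day0 and Day3 those of Fosl2, Jun and Fosl1 ranked better in every library than those of Fos, Fosb, Junb and Jund. At Day10 Jund, at rank 2511 in replicate 2, came ahead of Fosl1, at 2693 in the same library. Against Day0, the Day3 ranks were poorer in both libraries than in either Day0 library at 5 genes and better at 1, Fosb, while 22.0% of the 12179 windows within rank 20000 in all libraries were poorer in that way and 37.7% better. At Day10, against Day0, they were poorer at 3 (Fosl1, Fosl2 and Jun), better at Fosb alone and overlapping at Fos, Junb and Jund, beside 29.1% poorer and 37.1% better over those windows. Day10 ranks were better than those of Day3 at Fos, Fosb and Jund and poorer at Fosl2 and Jun, beside 28.2% better and 36.0% poorer. The fold of these peaks had a median log2 ratio of -0.24 for Day3 over Day0, beside -0.13 over all 67454 windows listed in all 6 libraries. For Day10 over Day0 it was -0.32, beside -0.21 over all windows and -0.28 over those within rank 20000. For Day10 over Day3 it was -0.09, beside -0.13 over all windows, but with rank in place of fold, where a positive value is a better rank, the median was 0.16.

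**Figure D1:**
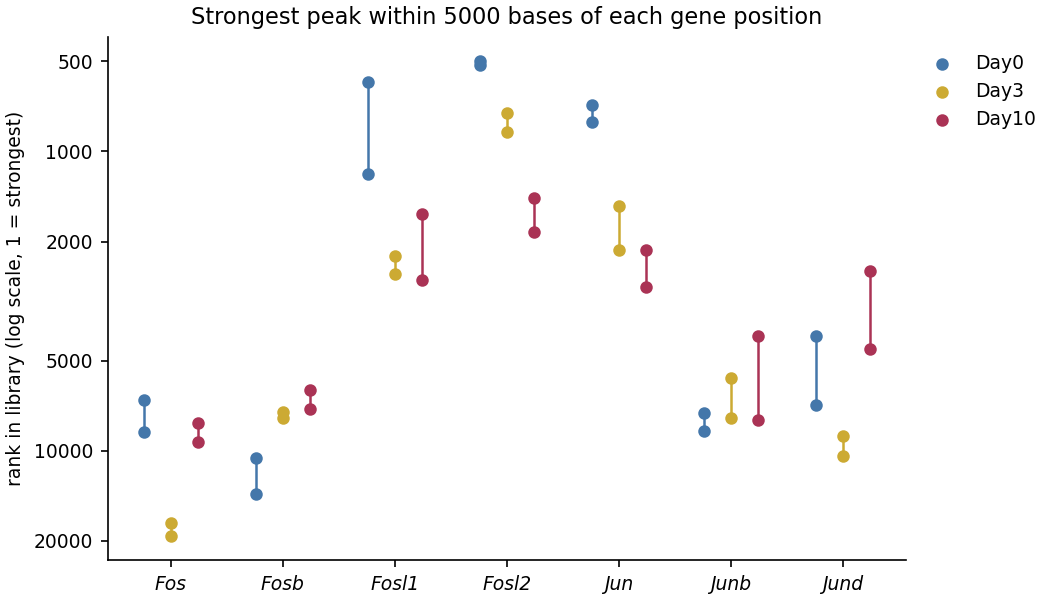
Rank of the strongest peak within 5000 bases of each gene position, on a log scale with the strongest at the top. Each point is a library and each line joins the 2 libraries of a day. Fosl2, Jun and Fosl1 lie between 497 and 2836 on all days, while Fos at Day3 lies at 17413 and 19305.

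Fos, the founding subunit and the classic immediate early gene, had its strongest nearby peak 1626 to 1669 bases below the position. Its fold was 44.3 and 42.8 (Day0), 29.5 and 28.4 (Day3) and 35.0 and 34.9 (Day10), and its rank was 6752 and 8658, then 17413 and 19305, then 8085 and 9331. The Day3 libraries were the lowest and did not overlap with the others, while the Day10 ranks overlapped those of Day0. The reads at the summit, worked out from the fold, numbered 75 and 73 (Day0), 52 and 50 (Day3) and 72 and 74 (Day10). The shape differed too. At Day0 a single peak of 2875 and 2809 bases reached from there across the gene position, and at Day3 and Day10 separate peaks stood at the 2 sites. The window centred 35 bases below the position held its own summit at ranks 27246 and 23686 at Day3 and, at Day10, at 22511 in replicate 2 alone. In Day10 replicate 1 the second peak had its summit 341 bases below the position and ranked 27230.

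On the side of higher coordinates, downstream of Fos on its plus strand, windows differed in direction, and a neighbouring pair was weaker on later days. The window 24059 bases away, chromosome 12 from 85544474 to 85544974, had a fold of 41.4 and 43.9 (Day0), 27.8 and 23.9 (Day3) and 18.7 and 16.7 (Day10). Each later day was lower without overlap. The log2 ratio of Day10 over Day0 was -1.27, beside a median of -0.21 over all windows listed in all 6 libraries. A smaller peak next to it, 25830 bases away from 85546245 to 85546745, had Day0 ranks of 44638 and 48722 and Day3 ranks of 101299 and 89035, with no listed peak at Day10. On the lower side stood a window 21535 bases away from 85498880 to 85499380. It was listed only at Day10, at ranks 34958 and 29964. The strong window 18419 bases below the position was open on all days, at ranks 2932 and 7150, then 9642 and 10027, then 11503 and 11301. In mouse neurons, enhancers lie on both sides of Fos. Whether these windows are such enhancers was not tested.

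**Figure D2:**
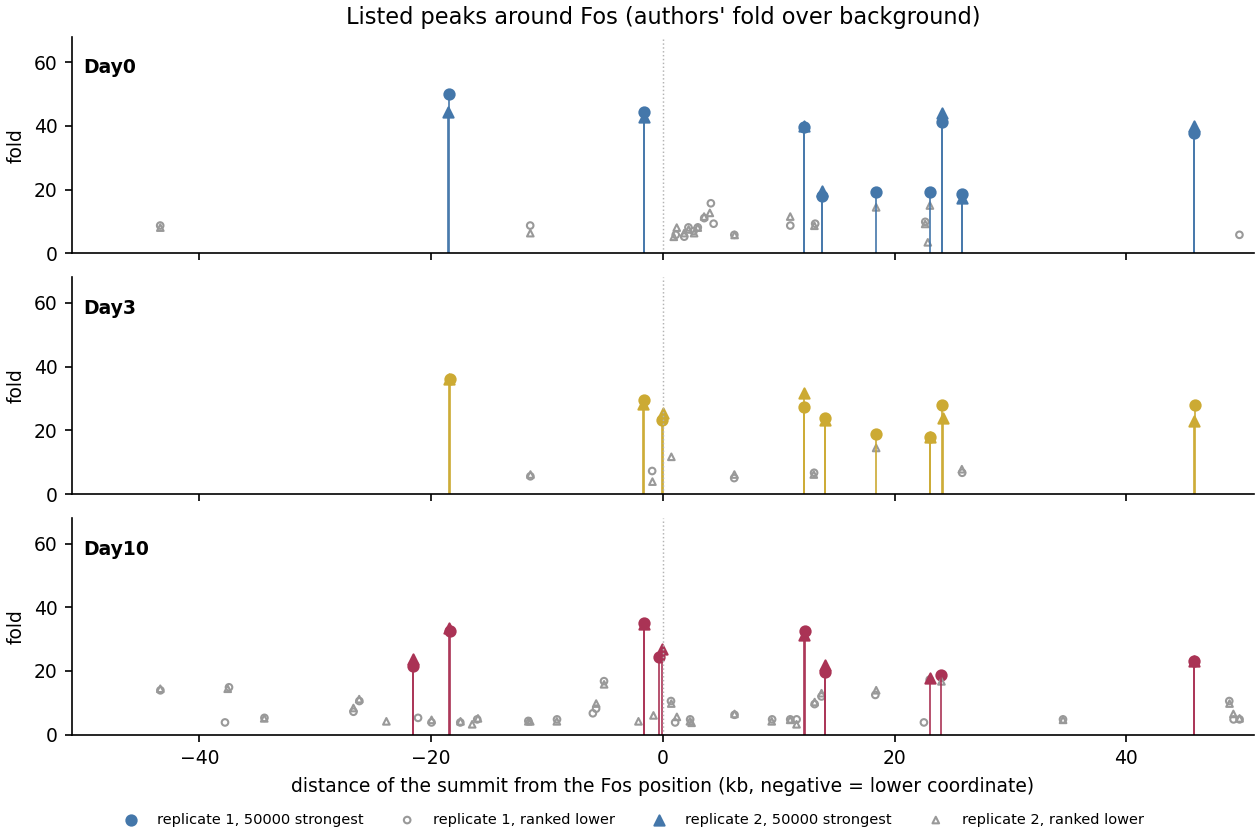
Listed peaks within 50 kilobases of the Fos position by day, with distance of the summit on the x axis and the authors' fold on the y axis. Filled symbols with stems are among the 50000 strongest of their library, and open grey symbols rank lower. The peak near 24 kilobases stands at 18.7 and 16.7 at Day10, against 41.4 and 43.9 at Day0.

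Fosb, an immediate early relative of Fos, was the gene whose strongest nearby peak ranked better on both later days. The strongest peak, 2638 to 2662 bases above the rounded position, ranked 13932 and 10591 (Day0), 7400 and 7743 (Day3) and 7256 and 6244 (Day10). Its fold was 37.3 and 41.0, then 38.9 in both libraries, then 36.0 and 37.6. The ranks were better on both later days, while the folds overlapped. A weaker window, 4334 bases above the position, went the other way. Its fold was 23.3 and 28.9 (Day0), 16.7 and 15.0 (Day3) and 17.3 and 22.3 (Day10). Its rank was 34508 and 25372, then 43926 and 49897, then 52163 and 34605. As the position is rounded, which of these lies nearer the gene start was not assigned. Within 5000 bases of the position, the 50000 strongest peaks covered 7798 and 6501 bases (Day0), 2523 and 2700 (Day3) and 2382 and 2974 (Day10). The Day0 peaks were wider at the same sites: the peak over the window 4763 bases below the position was 2010 and 2744 bases wide (Day0), 242 and 229 (Day3) and 220 and 226 (Day10), at folds of 22.7 and 19.6, 22.8 and 21.7, and 26.4 and 25.6. Over all chromosomes the median width of the 50000 strongest peaks went the other way, with 546 and 552 bases (Day0), 593 and 591 (Day3) and 644 and 671 (Day10).

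Farther from Fosb, the window 10797 bases above the position, from 19050548 to 19051048, had a fold of 46.6 and 46.8 (Day0), 22.8 and 24.5 (Day3) and 25.9 and 23.2 (Day10). It was the strongest peak of the locus at Day0 and was lower at both later days, with no overlap. Of the 18 Fosb windows, 12 were within the 50000 strongest of all 6 libraries by overlap. The RefSeq table lists 6 other coding genes around Fosb (Vasp, Ppm1n, Rtn2, Ercc1, Cd3eap and Ppp1r13l), so a window there need not belong to Fosb.

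Fosl1 encodes Fra-1, which lacks the strong activation domain of Fos. Its locus was the densest of the 7, with 24 windows, and it has the most coding neighbours in the RefSeq table, 10, among them Drap1, Fibp, Mus81 and Cfl1. The strongest peak within 5000 bases, 2564 to 2620 bases below the position, had a fold of 54.8 and 58.4 (Day0), 46.1 and 47.3 (Day3) and 42.2 and 41.4 (Day10). The window nearest to the position itself, 167 bases away, was weaker, with 36.7 and 34.7 (Day0), 28.4 and 26.1 (Day3) and 25.4 and 26.0 (Day10). Both were highest at Day0. Of the 24 windows, 19 were within the 50000 strongest of all 6 libraries by overlap, and 4 were within the 5000 strongest of all 6. The lost window was 10753 bases below the position, from 5486724 to 5487224, with a fold of 23.3 and 26.6 (Day0), 9.45 and 8.34 (Day3) and 6.72 and 7.44 (Day10). The best ranked window open on all days lay 42716 bases above the position, with a fold of 55.3 and 60.1 (Day0), 49.5 and 51.2 (Day3) and 39.8 and 43.7 (Day10). The widest lay 40725 bases above it, under peaks of 1993 and 1130 bases (Day0), 2273 and 2240 (Day3) and 4948 and 4258 (Day10). The windows 16737, 19391 and 22962 bases above the position were higher at Day10 than on either earlier day. The one 19391 bases away had a fold of 18.1 and 15.6 (Day0), 12.2 and 13.9 (Day3) and 27.3 and 29.3 (Day10).

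Fosl2 encodes Fra-2, the subunit whose loss disturbs the growth plate in mice, and 3 of the 16 windows at its locus were gained at Day10 against Day0, where 10.8% of all windows were by the same stricter form. The peak at the position was the strongest of all nearby peaks. Its fold was 58.3 and 58.9 (Day0), 52.3 and 52.3 (Day3) and 42.7 and 42.8 (Day10), and its rank 497 and 514, then 743 and 864, then 1429 and 1858. The rank was poorer on each later day without overlap. The log2 ratio of Day10 over Day0 was -0.46, beside a median of -0.28 over windows within rank 20000 in all libraries. The peak was wider on later days. It spanned 1317 and 2424 bases (Day0), 4633 and 4861 (Day3) and 4571 and 4986 (Day10). At Day0 a second peak, with a fold of 44.9 and 44.5, stood 2640 and 2110 bases below the position, and at Day3 and Day10 the single wide peak covered that site.

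The windows 23443 and 14873 bases below the position and 47524 bases above it were gained at Day10 against both earlier days. The first, chromosome 5 from 32269511 to 32270011, was not listed at Day0, had a fold of 5.56 and 5.00 at Day3, and of 20.6 and 19.5 at Day10. The second, from 32278081 to 32278581, was listed only at Day10, with 24.0 and 20.9, and the third, from 32340478 to 32340978, likewise with 18.2 and 18.1. These gained peaks are moderate, at Day10 ranks of 29010 to 48753.

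Other Fosl2 windows ranked better at Day10 without meeting the rule for gained windows. The window 25172 bases above the position, from 32318126 to 32318626, which lies beyond the RefSeq gene length of 21369 bases, was the strongest of these at Day10. Its fold was 17.5 and 19.1 (Day0), 10.6 and 11.7 (Day3) and 37.4 and 36.7 (Day10), and its rank 48703 and 44674, then 69235 and 63897, then 5517 and 7210. Day3 was lowest and Day10 highest, without overlap, and the log2 ratio was 1.02 for Day10 over Day0 and 1.74 for Day10 over Day3. The window 7742 bases below the position had a fold of 8.74 and 8.09 (Day0), 13.9 and 12.2 (Day3) and 24.9 and 27.0 (Day10). The window 1593 bases above it was at 12.8 and 10.4 (Day0), 11.1 and 12.2 (Day3) and 22.5 and 24.2 (Day10). In the opposite direction, the far window 46170 bases below the position had 48.9 and 51.4 (Day0), 40.0 and 45.0 (Day3) and 31.2 and 32.1 (Day10). Among the 50000 strongest peaks, the locus held 6 and 7 (Day0), 3 and 3 (Day3) and 11 and 11 (Day10). No other locus of the 7 had such a spread between days by this count. At Day3 and Day10 a single wide peak covered the sites of separate Day0 peaks, which lowers a count of peaks. Windows within the 50000 strongest of both libraries of a day, by overlap, numbered 7 (Day0), 5 (Day3) and 13 (Day10).

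**Figure D3:**
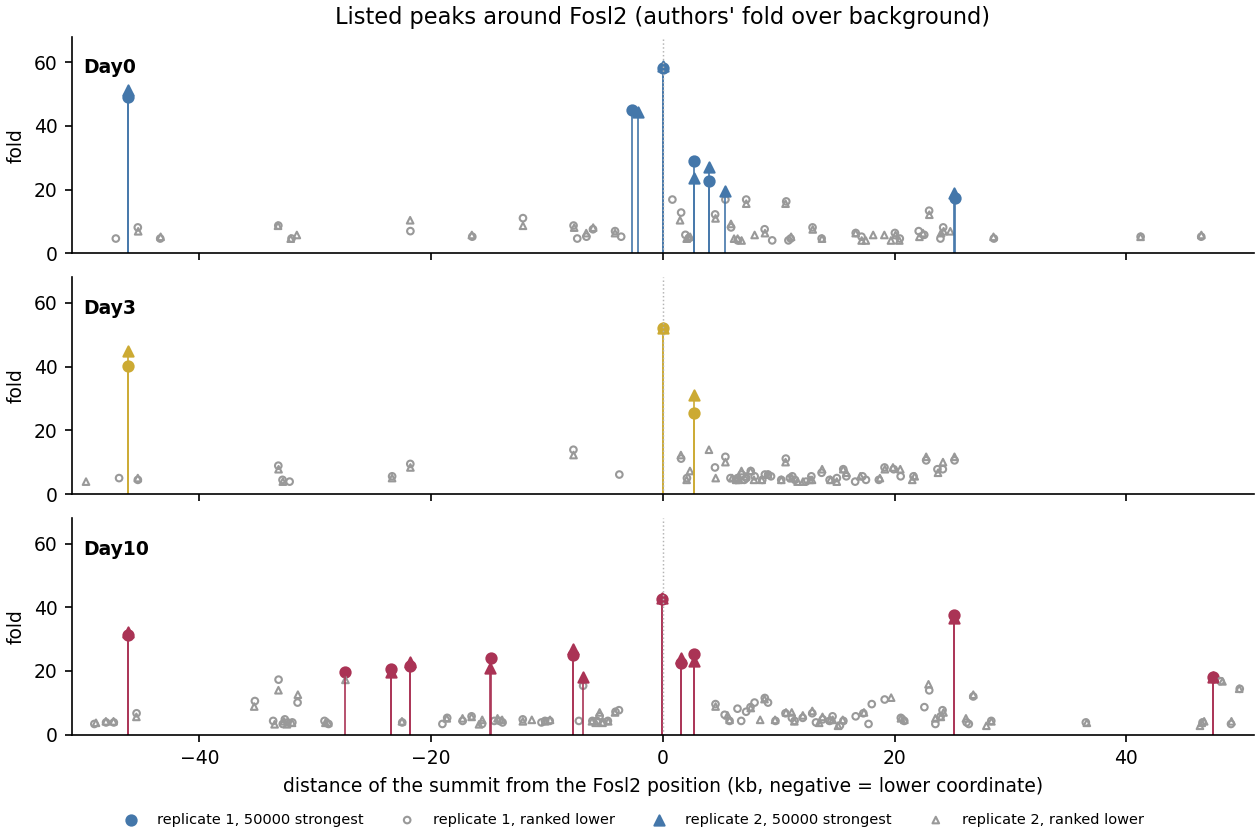
Listed peaks within 50 kilobases of the Fosl2 position by day, with distance of the summit on the x axis and the authors' fold on the y axis. Filled symbols with stems are among the 50000 strongest of their library, and open grey symbols rank lower. Day10 has 11 filled peaks per library, with that near 25 kilobases at 37.4 and 36.7, while Day3 has 3.

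Jun, which can pair with itself and with every Fos protein, had a wide and strong peak over its position on all days. The fold was 56.5 and 57.8 (Day0), 47.3 and 49.5 (Day3) and 40.3 and 42.3 (Day10), with widths of 3838 and 3745, 4768 and 4826, and 3832 and 4312 bases. The rank was 795 and 699, then 2130 and 1527, then 2836 and 2131, so each later day was poorer than Day0, and Day10 poorer than Day3 by a single place between the nearest libraries. The log2 ratio of Day10 over Day0 was -0.47, beside a median of -0.28 over windows within rank 20000 in all libraries. On the side of lower coordinates, downstream of Jun on its minus strand, windows differed in direction, and a pair was weaker on each later day. The window 18991 bases below the position, chromosome 4 from 94920760 to 94921260, had a fold of 32.0 and 32.4 (Day0), 19.5 and 18.9 (Day3) and 9.59 and 10.7 (Day10). The window 28071 bases below, from 94911680 to 94912180, had 22.7 and 20.8, then 9.45 and 10.6, then 7.20 and 6.51, and was the lost window of the locus. Both were lower on each later day without overlap. Others on that side were highest at Day3. The window 43397 bases below had a fold of 14.6 and 10.4 (Day0), 20.0 and 17.2 (Day3) and 12.5 and 11.2 (Day10), and that 13592 bases below had 17.5 and 19.1, then 21.1 and 20.0, then 16.8 and 17.7. The window 1686 bases below was covered by the wide Day3 peaks, at 47.3 and 49.5, against separate peaks of 27.4 and 27.2 at Day0. The strong window 25704 bases below lies between the Jun gene and the lost one, and ranked 16620 or better in every library, at folds of 39.6 and 40.4, 39.5 and 40.6, and 29.7 and 34.9.

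Junb, a Jun protein that often opposes Jun, had a peak over its position whose rank overlapped between days. It ranked 8605 and 7485 (Day0), 5710 and 7777 (Day3) and 4124 and 7910 (Day10). The summit stood 277 to 338 bases above the rounded position at Day0 and Day3 and 2474 and 2386 bases above it at Day10, in a peak that at Day10 covered both places. The window 5721 bases above the position, chromosome 8 from 85708472 to 85708972, was overlapped by peaks with a fold of 11.7 and 11.6 (Day0), 33.9 and 33.4 (Day3) and 30.7 and 33.5 (Day10). The later peaks had their summit in the neighbouring window 4894 bases above the position, which was already at 36.1 and 39.9 at Day0. In Day10 replicate 2 the window 5721 bases above also held a summit of its own, at rank 27322, against 72662 and 73343 at Day0. The window 19424 bases below the position, from 85683327 to 85683827, was at 12.8 and 15.6 (Day0), 16.1 and 16.7 (Day3) and 7.68 and 7.90 (Day10), and was lost between Day3 and Day10. The RefSeq table lists 8 other coding genes around Junb, among them Prdx2 and Hook2.

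Jund, the Jun protein made in most resting cells, had a nearby peak that was lowest at Day3. The fold was 44.3 and 49.1 (Day0), 37.3 and 36.1 (Day3) and 38.4 and 41.8 (Day10), and the rank 7052 and 4135, then 8936 and 10403, then 4585 and 2511. The Day3 ranks did not overlap with the others, and those of Day10 and Day0 overlapped. The peak was wider on later days, with 2176 and 2149 bases (Day0), 2909 and 2877 (Day3) and 3759 and 3684 (Day10). It came to cover the window 2489 bases above the position, where separate peaks of 22.1 and 22.5 fold stood at Day0. Around it, the window 2758 bases below the position had a fold of 14.6 and 14.4 (Day0), 12.2 and 12.8 (Day3) and 26.4 and 30.7 (Day10), and the window 4540 bases above it had 27.4 and 30.6, then 23.4 and 23.9, then 34.1 and 37.2. Both were highest at Day10. The best ranked window open on all days stood apart from it, 16017 bases below the position, with a fold of 44.9 and 50.3 (Day0), 38.9 and 37.8 (Day3) and 39.8 and 39.0 (Day10). The gained window, 18730 bases below the position from 71132021 to 71132521, had 5.83 and 6.93 at Day0, was listed at Day3 in replicate 2 alone, at 5.00, and had 25.4 and 24.2 at Day10. The RefSeq table lists 5 other coding genes around Jund, among them Lsm4 and Pde4c.

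Across the 7 loci together, by the summit rule, 9 of 119 windows (7.56%) were gained at Day10 against Day0, beside 12% of all windows, and 7 (5.88%) were lost, beside 10.0%. Under the stricter form, 5 windows (4.20%) were gained, beside 10.8%, and 3 (2.52%) were lost, beside 7.98%. The gained ones were the Fos window, the Fosl2 trio and the Jund window described above, and the lost ones lay at Fos, Fosl1 and Jun. At each of the other calls a peak summiting elsewhere reached the window on the other day, as at Junb. It did so in both libraries of that day except at the Fosl1 window 22962 bases above its position, where it did in Day0 replicate 1 alone, at rank 78052. Dropping Day10 replicate 2 or Day0 replicate 1 gave 11 lost by summit.

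Day10 against Day3 gave 6 gained windows (5.04%) by the summit rule, beside 9.10% of all windows, and 2 lost (1.68%), beside 4.59%. With the overlap rule added, there were still 6 gained, beside 7.74%, and 1 lost (0.840%), beside 3.16%. The gained ones were the 5 that were also gained against Day0 and the Fosl1 window 22962 bases above the position, from 5520439 to 5520939, whose overlapping peaks had a fold of 18.2 and 18.6 at Day10 and 5.56 and 6.67 at Day3. Dropping Day10 replicate 1 gave 10 gained by summit, and dropping Day10 replicate 2 gave 4 lost.

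Day3 against Day0 gave 2 gained windows (1.68%) by the summit rule, beside 1.17% of all windows, and 4 lost (3.36%), beside 1.73%. The gained ones were the Fos windows 35 bases below and 14031 bases above the position, and the lost ones lay at Fosl1, Jun and Jund. Peaks with a summit elsewhere covered all 6 on the other day, so with the overlap rule added, 0 were gained, beside 0.539% of all windows, and 0 lost, beside 0.516%. Dropping either Day3 library gave 4 gained by summit. Dropping Day3 replicate 2 or either Day0 library gave 7 lost.

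A rule that asks only for a rank at least 4 times better or poorer in both libraries of a day than in both of the other, with ranks past 100000 counted as 100000, was added after the values were seen. For Day10 against Day0 it found 3 better windows, at Fosl2 (25172 bases above), Jund (2489 above) and Junb (5721 above), or 2.52% beside 5.44% of all windows. At the Jund and Junb windows the Day10 peak counted had its summit in a neighbouring window and overlapped the site. The Junb window also held a summit of its own in Day10 replicate 2, at rank 27322. It found 3 poorer, at Fos (24059 above), Fosb (10797 above) and Jun (18991 below), or 2.52% beside 4.20%. For Day10 against Day3 it found 1 better, the same Fosl2 window, beside 3.91% of all, and 0 poorer, beside 1.37%. For Day3 against Day0 it found 4 better (3.36%, beside 0.454%) and 1 poorer (0.840%, beside 0.296%). The 4 were a pair at Fosl2, 1 at Jun and 1 at Junb, all sites where a wider Day3 peak reached over a neighbouring one, and the poorer one was the Fosb window.

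**Figure D4:**
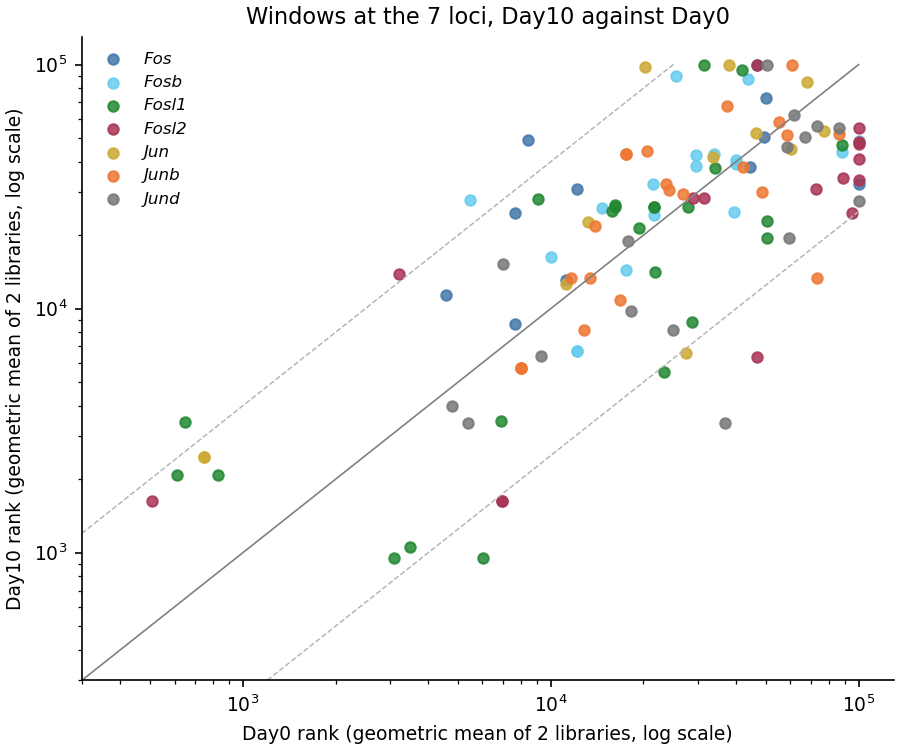
Rank at Day10 against rank at Day0 for the 119 windows, each the geometric mean over 2 libraries on log axes, coloured by gene. The solid line marks equal rank and the dashed lines a difference of 4 times, and ranks past 100000 or absent are drawn at 100000. Most windows lie between the dashed lines.

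Much of the AP-1 neighbourhood was open on every day. By overlap, 69 of 119 windows (58.0%) were within the 50000 strongest of all 6 libraries, beside 39.7% of all windows. By summit they numbered 47 (39.5%), beside 32.7%. Windows within the 5000 strongest of all 6 libraries numbered 7 (5.88%), beside 2.93%: 4 at Fosl1, 1 at Fosl2 and 2 at Jun, the last a pair under 1 wide peak. The share held differed among the genes, from 19 of 24 at Fosl1, 14 of 22 at Junb and 12 of 18 at Fosb to 5 of 16 at Fosl2 and 5 of 12 at Jun, with 6 of 11 at Fos and 8 of 16 at Jund. The RefSeq table lists 10, 8 and 6 other coding genes around Fosl1, Junb and Fosb, 5 around Jund and no other around Fos, Fosl2 and Jun. The higher share over the 7 loci thus need not belong to the AP-1 genes, and whether it follows the density of genes was not tested. Neighbouring windows can share a peak and are not independent.

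Counted in equal numbers of peaks, the 7 loci together held 79 and 81 of the 50000 strongest peaks (Day0), 73 and 70 (Day3) and 81 and 83 (Day10). The Day3 libraries were the lowest of these. The order depended on the number of peaks taken: the ratio of Day10 over Day3 was 1.15 here and 0.988 with the 100000 strongest, and that of Day10 over Day0 was 1.02 here and 0.854 with 100000. Windows within the 50000 strongest of both libraries of a day, by overlap, differed in direction among the genes. At Fosl2 they numbered 7 at Day0, 5 at Day3 and 13 at Day10, and at Jund 8, 8 and 11. At Jun they numbered 9, 8 and 6. The covered bases within 50000 bases of the positions came to 78770 and 78437 (Day0), 75614 and 74997 (Day3) and 92822 and 97297 (Day10), while the 50000 strongest peaks of a library covered 32.9 and 33.2 megabases in all (Day0), 36.5 and 36.1 (Day3) and 40.4 and 42.0 (Day10).

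**Figure D5:**
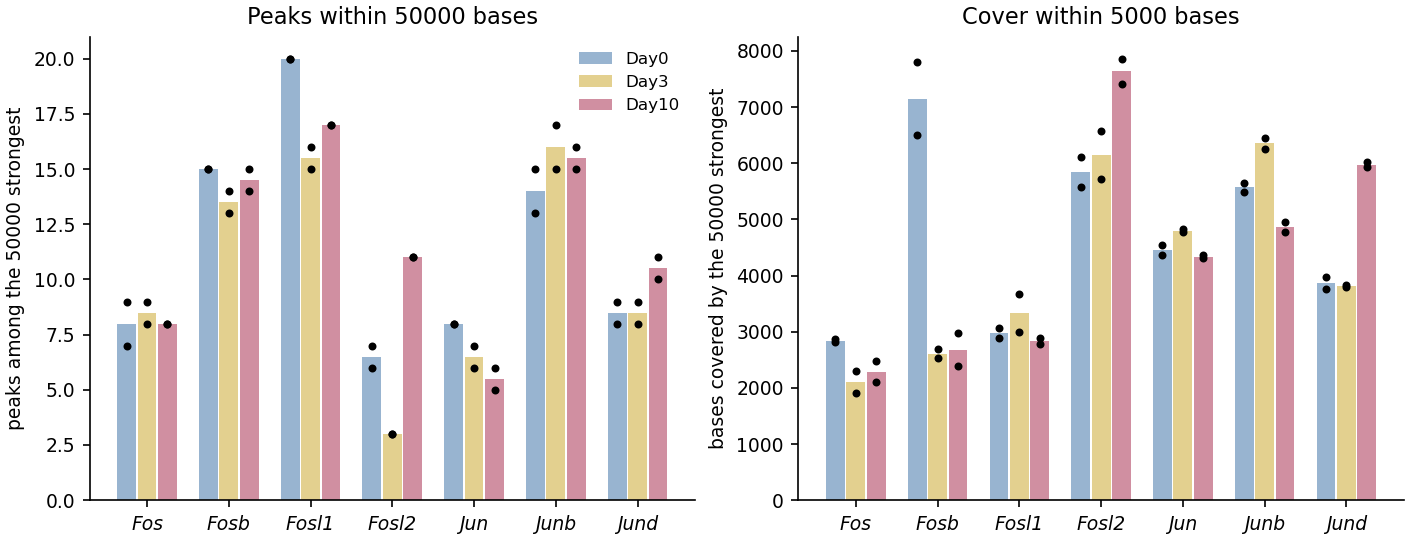
Peaks among the 50000 strongest within 50000 bases of each gene (left) and bases they cover within 5000 bases (right), by day. Bars are means of 2 libraries and black points the libraries. Fosl2 has 11 peaks in both Day10 libraries against 3 in both Day3 libraries, and Fosb has 2382 to 2974 covered bases at Day3 and Day10 against 7798 and 6501 at Day0.

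The nearby peaks of the 7 genes were also compared in pattern, as the mean absolute difference of log2 rank over the 6 libraries. The closest pairs were Fosb and Junb, at 0.46, and Fosl1 and Jun, at 0.47. Junb and Jund followed at 0.67. The farthest apart were Fos and Fosl2, at 3.62. This measure sums over the level of the ranks and their order by day. Fosb and Junb had better mean ranks on later days and Fosl1 and Jun poorer ones than at Day0. The Junb ranks of single libraries overlapped between all days. No gene outside the family was compared, because no annotation of the build was used here.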

How the data were processed

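The data are 1 narrowPeak list per library, from 75-base single-end ATAC-seq reads per the labels' protocols. In ATAC-seq the Tn5 transposase cuts open chromatin. Trim Galore and mm10 are named in the submitters' processing notes, but scaffold names in the lists belong to GRCm39, so positions are read as GRCm39 and counted from 1. Not given in the sources used here: aligner, peak caller, settings and any shift for the Tn5 cut. The fold ratio over background and the -log10 p and -log10 q of each peak are the authors' own deposited values. Every fold was a whole multiple, within 0.01, of a single step per library, as for (pileup + 1) / (background + 1), which gives 50 to 101 reads at the summit of the peaks nearest the genes. Read totals were not used here.

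Chromosomes 1 to 19, X and Y were used. Peaks were ranked within a library by -log10 p, then fold, then position. Windows reaching 250 bases to either side were centred on the summits of the 50000 strongest peaks of all libraries, keeping the better ranked of any that overlapped, and calls were made over all windows. The calling code was tested on simulated lists. Members, lists and rules were chosen with earlier results of these data known. The text names the strongest peak within 5000 bases of each gene, each window called by both rules and the best ranked and widest window kept on all days; the windows named beyond these were chosen after their values were seen. The planned gene and marker lists need an annotation of the build and were not run. Alternatives were other numbers of peaks, overlap rules, distances, thresholds and leaving out each library. Python 3.11.15, numpy 2.4.6, pandas 2.3.3 and matplotlib 3.10.9 were used.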

Additional observations from a re-analysis of the deposited data

How the results depend on the processing

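Counts of gained and lost windows depended on the rank limits, and the cause was not tested beyond how each setting is built. With the 30000 strongest peaks and an outer limit of 60000, which left 79 windows at the loci, Day3 against Day0 had 2 lost (2.53%, beside 1.71% of all windows), Day10 against Day0 had 3 gained (3.80%, beside 11.2%) and 4 lost (5.06%, beside 9.89%), and Day10 against Day3 had 2 gained (2.53%, beside 8.79%) and 1 lost (1.27%, beside 4.40%). With 75000 and 150000, and 157 windows at the loci, the same comparisons had 10 lost (6.37%, beside 2.01%), 15 gained (9.55%, beside 12.5%) and 13 lost (8.28%, beside 9.95%), and 12 gained (7.64%, beside 9.30%) and 4 lost (2.55%, beside 4.88%). With no gap between the limits, Day3 against Day0 had 4 gained (3.36%, beside 8.63%) and 11 lost (9.24%, beside 8.93%), Day10 against Day0 15 (12.6%, beside 19.2%) and 14 (11.8%, beside 19.5%), and Day10 against Day3 15 (12.6%, beside 16.3%) and 8 (6.72%, beside 15.5%). When a peak overlapping by 1 base counted as present, Day3 against Day0 had 0 gained and 0 lost (beside 0.597% and 0.530%), Day10 against Day0 3 lost (2.52%, beside 8.07%) and Day10 against Day3 1 lost (0.840%, beside 3.28%). With 250 bases, Day3 against Day0 had 1 gained (0.840%, beside 2.35%). Both rules together, added after the data were seen, gave 0 gained and 0 lost, then 5 and 3, and for Day10 against Day3 1 lost. Leaving out 1 library at a time, which removes a condition, gave 2 to 4 gained and 6 to 7 lost for Day3 against Day0, 10 to 12 and 9 to 11 for Day10 against Day0, and 8 to 10 and 2 to 4 for Day10 against Day3. The median log2 fold of the nearby peaks within 2000 bases was -0.29 for Day3 over Day0, -0.47 for Day10 over Day0 and -0.16 for Day10 over Day3. These medians leave out Fosb, which gave no value at that distance, and take another peak at Fosl1. They are thus not over the same peaks as the medians within 5000 bases. With rank in place of fold, where a positive value is a better rank, the medians of all 7 genes within 5000 bases were -0.79, -0.18 and 0.16. For fold within 5000 bases, leaving out 1 library gave -0.27 to -0.21, -0.34 to -0.29 and -0.14 to -0.080. The ratio of peak totals of Day3 over Day0, 0.894, was 0.847 with 30000 peaks, 0.864 with 100000, 0.784 with a -log10 q of at least 10 and 0.932 within 25000 bases. That of Day10 over Day0, 1.02, was 0.928, 0.854, 1.14 and 1.0 in the same order, and that of Day10 over Day3, 1.15, was 1.10, 0.988, 1.46 and 1.07. Leaving out 1 library gave 0.875 to 0.912, 1.01 to 1.04 and 1.12 to 1.17. The totals of Day10 over Day0 thus lay on either side of 1 with the number of peaks used. No paired analysis was possible because these results come from no test.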
